A study of Homo sapiens with 2 samples.

Results

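The genes described here are 58 growth factors, receptors and binding proteins: 30 growth factor receptors, nearly all of them receptor tyrosine kinases, 22 of the ligands of this kind of receptor, and 6 insulin-like growth factor (IGF) binding proteins. Members were taken by gene name, and all 58 are among the 26370 gene names in the deposited files of both libraries. Messenger RNA was measured in the immortalised human line CHME3, labelled as microglia, at passages 4 to 6. There were 2 libraries. The first was made from untreated cells, and the other from cells that received muscarinic receptor antagonists, which block acetylcholine receptors of the G protein coupled kind, at 5 µg/ml. The labels describe this dose as the EC50, and name neither the compound nor the time of exposure nor a vehicle for the untreated cells. The series title concerns survival factors for microglia. Values are FPKM, fragments scaled to transcript length and library size, summed over the transcript records of a gene, so that levels of different genes can be compared. Pairs of values are given in the order untreated and treated.

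Receptor tyrosine kinases are membrane proteins with an outer part that binds a growth factor and an inner part that phosphorylates tyrosines. Ligand binding pairs receptor chains, which phosphorylate each other and recruit adaptors that start the RAS to ERK and the PI3K to AKT cascades, the main routes by which growth factors promote survival and division. In brain microglia, survival depends on the receptor tyrosine kinase CSF1R, and AXL and MERTK recognise dying cells through bridging ligands. Many of these genes give several proteins by alternative splicing, and a short stretch of RNA can decide which ligand a receptor binds or whether a ligand is released. IGF binding proteins hold IGFs outside the cell, and the receptor IGF2R carries IGF2 and lysosomal enzymes inward without a kinase of its own.

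The 8 stretches that follow separate transcript records of 7 members. They are shown because they tell apart the forms between which AXL, FGF5 and VEGFB were divided, and the form under which nearly all of KIT, INSR, KITLG and FGFR3 was listed. Each is printed 5′ to 3′ on the gene's own strand with 15 neighbouring transcript bases in lower case on both sides, and capitals mark the stretch itself. They were read from GENCODE release 29 transcripts on GRCh38 at the exon coordinates of the deposited files. The AXL exon of 27 bases (chr19:41239694-41239720, plus strand) lies in the part of the receptor just outside the membrane. The FGF5 exon of 104 bases (chr4:80274909-80275012, plus strand) is needed for the full-length growth factor, and skipping it shifts the frame and gives a truncated protein. The VEGFB stretch of 101 bases (chr11:64237420-64237520, plus strand) gives the freely secreted form, and without it the heparin-binding form is made. The KIT stretch of 12 bases (chr4:54726039-54726050, plus strand) adds 4 amino acids outside the membrane. The INSR exon of 36 bases (chr19:7150497-7150532, minus strand) marks isoform B of the insulin receptor, and the isoform without it, A, also binds IGF2 well. The KITLG exon of 84 bases (chr12:88515534-88515617, minus strand) holds the main site at which stem cell factor is cut from the membrane. The FGFR3 exons IIIb, of 151 bases (chr4:1802914-1803064, plus strand), and IIIc, of 145 bases (chr4:1803692-1803836, plus strand), exclude each other and set which FGFs the receptor binds.
AXL: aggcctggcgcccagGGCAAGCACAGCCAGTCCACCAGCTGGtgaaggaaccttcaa
FGF5: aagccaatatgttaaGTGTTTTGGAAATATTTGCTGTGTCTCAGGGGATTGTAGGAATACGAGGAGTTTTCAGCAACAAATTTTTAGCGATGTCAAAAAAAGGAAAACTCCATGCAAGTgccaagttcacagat
VEGFB: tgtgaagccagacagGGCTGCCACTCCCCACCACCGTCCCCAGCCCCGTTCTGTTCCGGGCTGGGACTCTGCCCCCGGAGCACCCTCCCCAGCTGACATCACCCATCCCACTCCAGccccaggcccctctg
KIT: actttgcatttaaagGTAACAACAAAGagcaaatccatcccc
INSR: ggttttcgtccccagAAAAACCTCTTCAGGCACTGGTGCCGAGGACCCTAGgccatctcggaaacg
KITLG: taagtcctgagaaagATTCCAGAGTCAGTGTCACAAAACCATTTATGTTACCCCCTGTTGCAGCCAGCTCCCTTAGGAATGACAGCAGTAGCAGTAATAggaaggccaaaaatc
FGFR3 IIIb: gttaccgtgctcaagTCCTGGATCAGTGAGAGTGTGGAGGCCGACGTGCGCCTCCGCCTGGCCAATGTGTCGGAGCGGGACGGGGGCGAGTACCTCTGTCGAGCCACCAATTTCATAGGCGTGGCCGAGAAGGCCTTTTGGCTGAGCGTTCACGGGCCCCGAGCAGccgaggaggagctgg
FGFR3 IIIc: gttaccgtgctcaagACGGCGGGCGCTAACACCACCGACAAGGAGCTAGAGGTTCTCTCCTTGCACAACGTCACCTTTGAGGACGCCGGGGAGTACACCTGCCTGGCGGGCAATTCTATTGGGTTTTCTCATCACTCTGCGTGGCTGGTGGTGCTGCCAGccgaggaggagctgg

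Depth was estimated at 6814381 fragments for untreated cells and 7300465 for treated cells. The files name 56891 transcripts, and 11668 genes, 44.2% of all, had a mean of at least 1 FPKM over both libraries, the floor used below. Their median log2 ratio of treated over untreated was 0.00. Of 25 markers of microglia and macrophages, 4 were over the floor, among them the lysosomal protein CD68, the receptor kinase MERTK and the endotoxin co-receptor CD14, and all 25 summed to 83.7 and 74.6 FPKM. The defining markers AIF1, TMEM119, CX3CR1, PTPRC, ITGAM and TYROBP were listed at 0 in both libraries, against the label. Of 16 markers of fibroblasts and mesenchymal cells, 10 were over the floor, with FN1, which encodes fibronectin, at 2725 and 3021 FPKM. Over the floor were also 1 of 11 markers of astrocytes and glia, 1 of 7 of neurons, 0 of 7 of endothelium and 3 of 6 of epithelium. The libraries also differed in RNA18S5, an 18S ribosomal RNA, at 363 and 759 FPKM.

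The comparison asked which of these genes differ between treated and untreated cells. Of the 58 members, 38 were over the floor, 22 of them nominally higher and 16 nominally lower in the treated library. None was at least 1.5-fold higher or lower on the scale of log2(FPKM + 1), a limit of size without a test, where 1.20% of all genes over the floor were higher and 1.03% lower by that much. Their log2 ratios ran from -0.48 for VEGFC to 0.49 for IGFBP3, and the median was 0.03. Since each condition has 1 library, differences have no replicate check. Each FPKM ratio therefore carries a 95% counting interval from the fragments behind it, which compares these 2 libraries, not the conditions, and covers counting error only. This interval lay above 1 for 4 members, IGF2R, FGF1, BDNF and IGFBP5, where 6.40% of all genes did so. It lay below 1 for 2 members, VEGFB and IGF2, where 6.04% of all genes did so. In such bulk libraries, fewer cells of a type and less RNA per cell cannot be told apart.

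**Figure D1:**
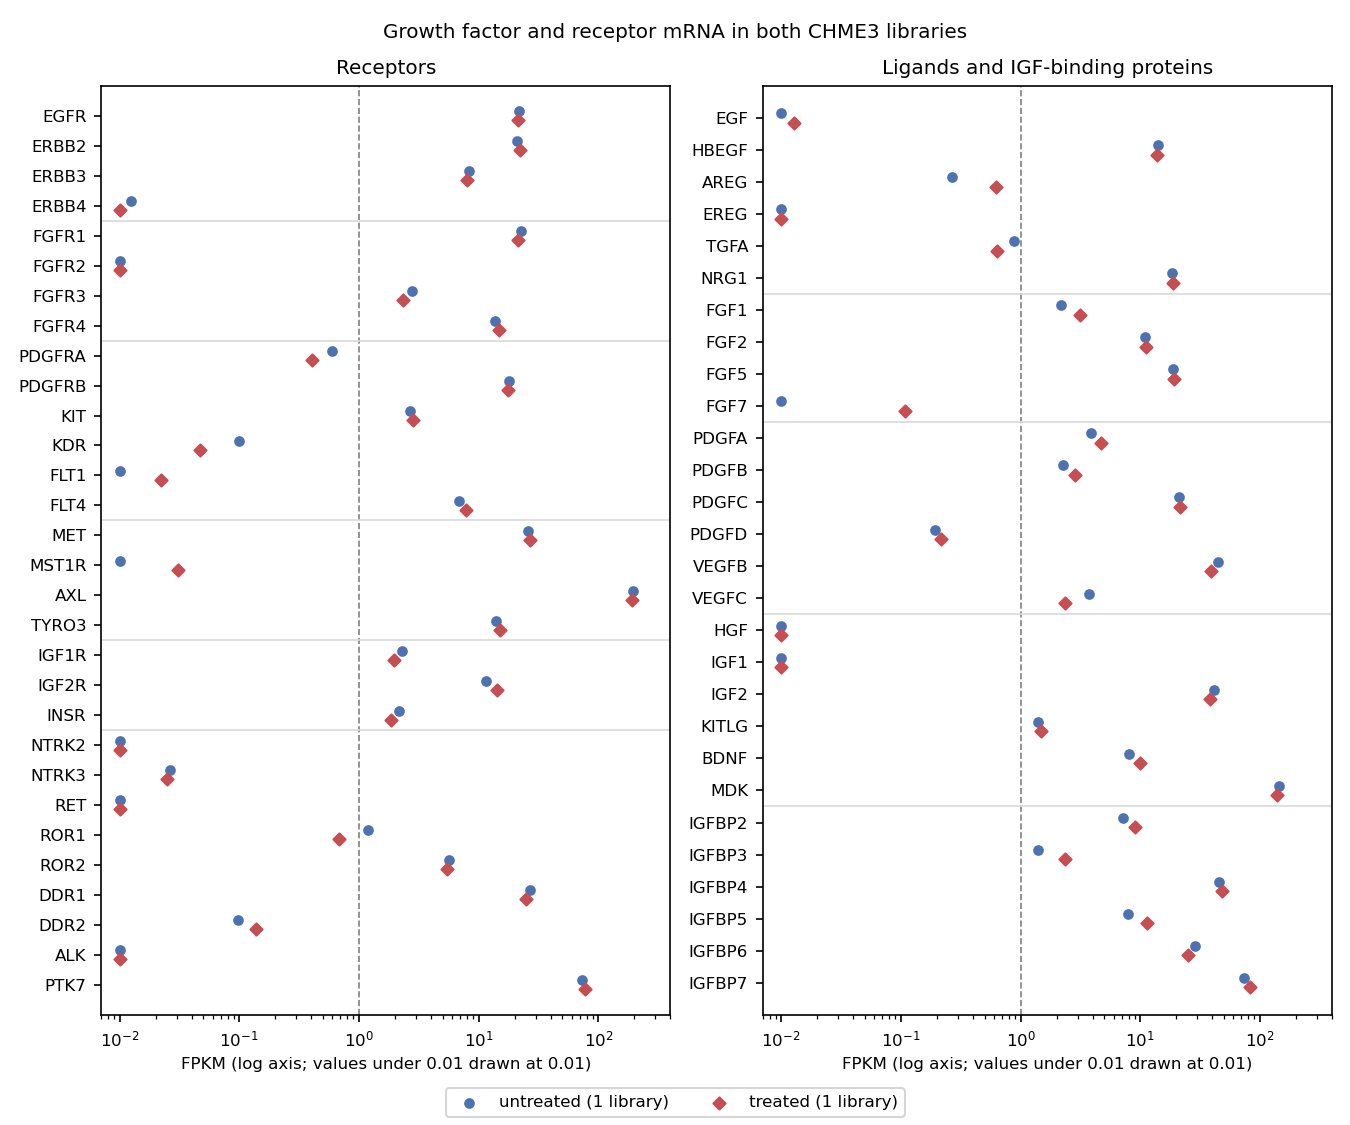
FPKM of all 58 members in the untreated library (blue circles) and the treated library (red diamonds), with receptors on the left, ligands and IGF-binding proteins on the right, and families separated by grey lines. The horizontal axes are logarithmic, values under 0.01 are drawn at 0.01, and the dashed line marks 1 FPKM. AXL and MDK lie farthest to the right in their panels.

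Among the receptors, 18 of 30 were over the floor, 8 nominally higher and 10 nominally lower in the treated library, with a median log2 ratio of -0.01. AXL, the receptor of the bridging ligand GAS6, was the highest of them at 195 and 190 FPKM, from 5976 and 6262 estimated fragments. Its rank among all genes was 335 and 336. The ratio of AXL was 0.979 (0.944 to 1.01), and its interval was the narrowest of the members. AXL made up 40.9% and 39.8% of the FPKM summed over the 30 receptors. PTK7, a receptor with an inactive kinase that acts in planar cell polarity and Wnt signalling, followed at 73.3 and 77.8 FPKM. Its interval, 0.999 to 1.13 around a ratio of 1.06, just included 1. All other receptors were below 30 FPKM in both libraries.

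TYRO3, from the same family as AXL, was at 13.9 and 15.2 FPKM. MERTK, the third receptor of that family and not a member here, was at 2.98 and 2.54 FPKM. The ligand GAS6 was at 41.0 and 42.6 FPKM and the ligand PROS1 at 3.11 and 2.58, so RNA for both AXL and its ligand was present in both libraries. MET, the receptor of hepatocyte growth factor, was at 25.6 and 26.9 FPKM from 1124 and 1267 fragments. Its ligand HGF was listed at 0 and 0.00576 FPKM, under the value of 3 fragments, which was 0.168 and 0.157 FPKM for this gene. MST1R, the other receptor of the MET family, was listed at 0 and 0.0308 FPKM.

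Of the ERBB receptors, EGFR was at 21.8 and 21.5 FPKM and ERBB2, a co-receptor with no known ligand of its own, at 21.0 and 22.2. ERBB3, which binds neuregulins and has a nearly inactive kinase, was lower at 8.24 and 8.05 FPKM. ERBB4 was at 0.0125 and 0.000584 FPKM, under its value of 3 fragments of 0.0375 and 0.0350. EGFR and ERBB2 did not differ beyond counting error in either direction, with ratios of 0.987 (0.896 to 1.09) and 1.06 (0.951 to 1.18). The main record of ERBB2 was at 19.2 and 19.0 FPKM. The sum for ERBB2 also holds a non-coding record at 3.99e-07 and 1.99 FPKM, whose deposited bounds did not overlap. All but a trace of EGFR was listed under the full-length record, and the 3 shorter records, which end upstream of the kinase, were each below 0.0001 FPKM. For ERBB3, a record of 1050 bases and 3 exons that encodes a secreted piece of the receptor held 23.5% and 33.3% of the FPKM. The authors' deposited bounds of that record, 0.569 to 3.30 and 1.10 to 4.26 FPKM, overlapped.

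Of the FGF receptors, FGFR1 was at 22.8 and 21.2 FPKM and FGFR4 at 13.8 and 14.8. FGFR3 was lower at 2.79 and 2.34 FPKM, and FGFR2 was listed at 0 in both, against 0.0988 and 0.0921 FPKM for 3 fragments, the limit that a count of 0 allows. The ratios of FGFR1, 0.930 (0.844 to 1.02), and FGFR3, 0.838 (0.598 to 1.17), had intervals that included 1. FGFR3 was listed as the IIIc form, printed above, at 2.79 and 2.32 FPKM, and its IIIb record was at a trace of 4.12e-07 and 1.00e-10 FPKM. IIIc is the form typical of mesenchymal cells.

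FGFR1 has 9 records, 6 of them with an exon of 267 bases that encodes the outermost Ig-like domain. Records with this exon summed to 8.15 and 5.37 FPKM, and records without it to 14.6 and 15.8. The share with the exon was thus 35.8% in untreated and 25.3% in treated cells. Most of this difference lay in 1 record of 5901 bases at 2.19 and 0.00705 FPKM, whose deposited bounds of 1.51 to 2.87 and 0 to 0.0549 did not overlap. The 9 records share most of their sequence, so their division is less certain than the sum.

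FGFR4 has records that differ at the 5′ end. A record with a first part longer by 44 bases was at 2.34 FPKM (bounds 1.40 to 3.28) in untreated and 5.47 (4.19 to 6.75) in treated cells. The shorter of the pair was at 9.84 and 8.20 FPKM, and the share of the gene that it held went from 71.1% to 55.2%. The sum over the gene, with a ratio of 1.07 (0.909 to 1.27), did not differ beyond counting error.

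PDGFRB, the receptor of PDGF-B and PDGF-D on pericytes and fibroblasts, was at 17.9 and 17.7 FPKM from 664 and 714 fragments. PDGFRA was under the floor at 0.600 and 0.407 FPKM, from 25 and 19 fragments. CSF1R, on which microglia depend, starts 466 bases from the end of PDGFRB on chromosome 5, and was at 0.0905 and 0.0844 FPKM. KIT, the receptor of stem cell factor, was at 2.65 and 2.83 FPKM, and KDR, the main VEGF receptor of endothelium, at 0.0998 and 0.0466. PDGFRA, KIT and KDR lie in a row on chromosome 4, separated by 360 and 338 kb, and only KIT was over the floor. KIT was listed as the record without the 12 bases printed above, and the record with them was at 0.000216 and 0.000262 FPKM.

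FLT4, the VEGF-C receptor of lymphatic vessels, was at 6.80 and 7.80 FPKM from 217 and 274 fragments. The ratio was 1.15 (0.956 to 1.38). Its record with the longer 3′ end was at 1.79 and 2.78 FPKM, with deposited bounds that overlapped. The record with the shorter end was at 5.02 FPKM in both libraries. FLT1, a high-affinity receptor of VEGF-A and VEGF-B, was at 0.00166 and 0.0222 FPKM, under its value of 3 fragments.

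IGF2R, the mannose 6-phosphate receptor that clears IGF2, was at 11.5 and 14.1 FPKM from 688 and 899 fragments. It is the only receptor whose counting interval excluded 1, with a ratio of 1.22 (1.11 to 1.35). The gene (chr6:159969099-160106551, plus strand) has 1 record of 9091 bases and 48 exons, so no division between records enters its value. Among the 2501 genes with 1000 to 5000 fragments over both libraries, the central 95% of FPKM ratios ran from 0.865 to 1.15, and IGF2R lay above that range. Its rank among all genes went from 5533 to 4848.

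The kinase receptors of the insulin family were low. IGF1R was at 2.31 and 1.98 FPKM with 190 and 174 fragments, and the ratio was 0.858 (0.694 to 1.06). INSR was at 2.17 and 1.84 FPKM with 131 and 119 fragments, and the ratio was 0.848 (0.656 to 1.09). Both were nominally lower and neither differed beyond counting error. INSR was listed as isoform A, without the exon of 36 bases printed above, and isoform B was at 0.000433 and 0.000263 FPKM.

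The remaining receptors include DDR1 and DDR2, which bind collagens. DDR1 was at 26.7 and 24.8 FPKM, and DDR2 at 0.0984 and 0.138, from 2 and 3 fragments. DDR1 has 50 records on 6 chromosome sequences, and all of its FPKM was listed on chromosome 6 itself, with the copies on alternate sequences at 0. The share of its most abundant record went from 43.1% to 32.5%. The deposited bounds of that record, 9.62 to 13.4 and 6.51 to 9.65 FPKM, overlapped. The share of all genes with such a shift is not given here. ROR2, a receptor of Wnt ligands with a kinase-like domain, was at 5.62 and 5.41 FPKM. ROR1, its relative, was just under the floor at 1.20 and 0.675 FPKM with 24 and 15 fragments, and the ratio was 0.563 (0.275 to 1.12). Most of ROR1 was listed under a truncated record, and its full-length record, at 0.279 and 0.176 FPKM, held 23.3% and 26.0%. The neurotrophin receptors NTRK2 and NTRK3 were at most 0.0266 FPKM in either library. RET, the receptor of the GDNF family, and ALK were listed at 0 in both. For them 3 fragments would be 0.0811 and 0.0757 FPKM (RET) and 0.0724 and 0.0676 FPKM (ALK).

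**Figure D2:**
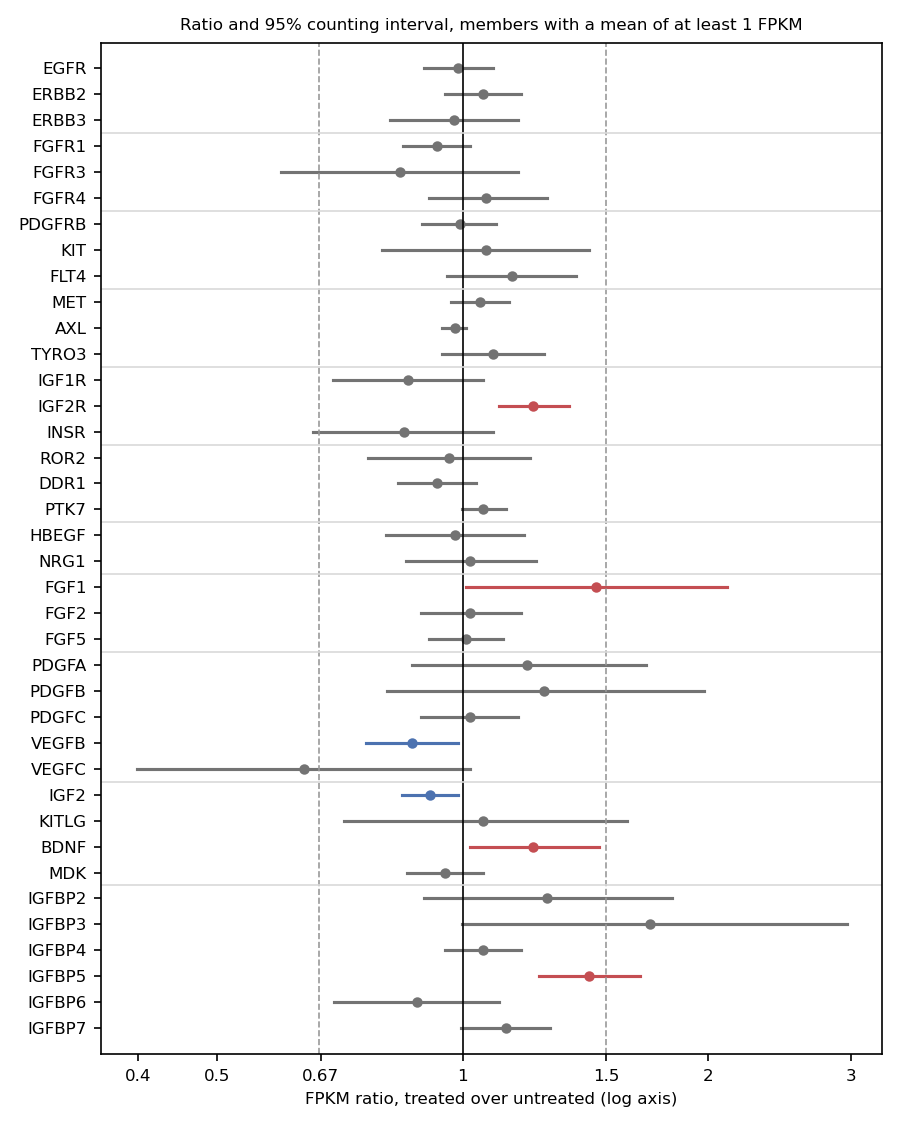
FPKM ratio of treated over untreated (points) with its 95% counting interval (lines) for the 38 members over the floor of 1 FPKM, on a logarithmic axis, with dashed lines at 1.5-fold in either direction. Red marks the 4 intervals above 1, blue the 2 intervals below 1, and grey those that include 1. AXL has the narrowest and IGFBP3 one of the widest intervals.

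Of the 22 ligands, 14 were over the floor, 9 nominally higher and 5 nominally lower, with a median log2 ratio of 0.03. MDK, midkine, a heparin-binding factor of embryonic and repairing tissue, was the highest at 145 and 138 FPKM from 700 and 720 fragments. Its rank was 480 and 504, its ratio 0.951 (0.856 to 1.06), and it made up 42.9% and 42.3% of the summed ligand FPKM. The gene lies 954 bases from CHRM4 on chromosome 11, which encodes a muscarinic receptor and was at 0.810 and 0.669 FPKM. After MDK came VEGFB and IGF2, the 2 members whose intervals lay below 1.

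VEGFB, a VEGF family ligand that binds FLT1, was at 44.9 FPKM in untreated and 38.9 in treated cells, from 489 and 457 fragments. The ratio was 0.867 (0.761 to 0.987). The record with the 101 bases printed above was at 36.2 and 33.7 FPKM, and the record without them at 8.68 and 5.21, so the longer one held 80.7% and 86.6%. For neither record did the authors' deposited bounds separate the libraries. VEGFC, the ligand of FLT4, was at 3.71 and 2.37 FPKM from 48 and 33 fragments. Its ratio of 0.639 (0.398 to 1.02) was the lowest among members over the floor, and its interval included 1. The FPKM ratio is past 1.5-fold, and with 1 FPKM added to both values it is not.

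IGF2, a fetal growth factor expressed from the paternal allele in most tissues, was at 41.7 and 38.0 FPKM from 1306 and 1278 fragments. The ratio was 0.912 (0.843 to 0.986). Its 2 main records, which begin at different first exons, were at 24.4 and 22.2 FPKM and at 17.1 and 15.8 FPKM, and held nearly the same shares in both libraries. The deposited bounds of each overlapped between libraries. The read-through gene INS-IGF2 covers 76.1% of the exon bases of IGF2, and was listed at 0.0542 and 0 FPKM. IGF1 was listed at 0 in both, against 0.0613 and 0.0572 FPKM for 3 fragments. IGF2 thus had RNA in these cells together with IGF1R, IGF2R and isoform A of INSR, and IGF1 was not detectable at this depth.

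FGF1, an FGF without a signal peptide that binds all FGF receptors, was at 2.16 FPKM in untreated and 3.14 in treated cells, from 51 and 81 fragments. The ratio was 1.46 (1.01 to 2.11), with the lower bound next to 1. Of its 14 records, 1 held 87.5% and 89.0% of the FPKM, and its deposited bounds of 1.28 to 2.49 and 2.10 to 3.50 overlapped. FGF2, which also leaves cells without a signal peptide, was at 10.9 and 11.1 FPKM. The gene shares 637 exon bases with NUDT6 on the opposite strand, 9.40% of its length, and NUDT6 was at 9.42 and 11.3 FPKM. Whether the libraries keep strand is not given, so reads of this overlap cannot be told apart. FGF7, a ligand of the IIIb form of FGFR2, was listed at 0 and 0.109 FPKM, from 0 and 3 fragments.

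FGF5, which ends the growth phase of hair follicles, was at 18.9 and 19.1 FPKM in all, a ratio of 1.01 (0.909 to 1.12). Its records differed between libraries by more than their bounds, and the interval of the sum included 1. The record with the exon of 104 bases printed above was at 13.1 FPKM (bounds 11.6 to 14.6) in untreated and 16.3 (14.7 to 17.8) in treated cells. The record without it, which encodes a truncated protein, was at 5.79 (4.69 to 6.90) and 2.71 (1.95 to 3.47). Of the pair, the longer record held 69.4% and 85.7%. The bounds did not overlap between libraries for either record. Of 50 member transcripts over 1 FPKM on average, in genes with several records, 4 were of this kind, in FGF5, FGFR1 and FGFR4. Of all such transcripts, 17.6% were. A further 9 records, of BDNF, DDR1, IGFBP7, MDK, NRG1 and PTK7, were listed at 0 in 1 library and at 0.5 FPKM or more in the other. The share of all transcripts that did so is not given here. Records listed at a trace in place of 0 are left out of this count, such as a record of FGFR1 at 0.000238 and 1.15 FPKM.

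**Figure D3:**
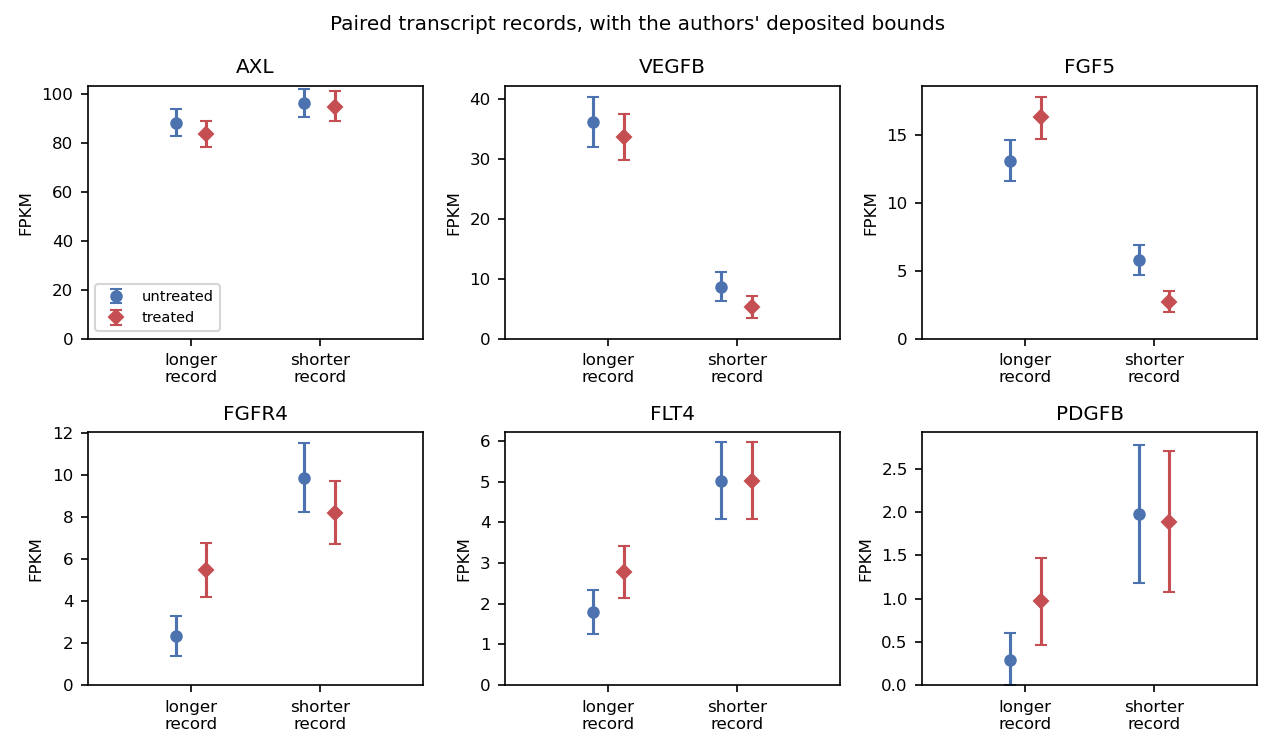
FPKM of a longer and a shorter transcript record of 6 members in the untreated (blue circles) and treated (red diamonds) library, on linear axes that start at 0. Bars are the authors' deposited lower and upper bounds, not replicate error. The bars of FGF5 separate the libraries for both records and those of FGFR4 for the longer record, and the others overlap.

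Of the PDGF ligands, PDGFC was at 21.2 and 21.6 FPKM, PDGFA at 3.91 and 4.71 and PDGFB at 2.27 and 2.86. PDGFA and PDGFB had wide intervals around ratios of 1.20 (0.868 to 1.68) and 1.26 (0.808 to 1.98). PDGFA was listed as the record that lacks 69 bases (chr7:500431-500499), the exon of the basic tail that holds the ligand to the cell surface and matrix. PDGFB had 2 records with different first exons, at 0.293 and 0.966 FPKM and at 1.98 and 1.89, with overlapping bounds. PDGFD was under the floor at 0.193 and 0.216 FPKM. Ligand RNA of the PDGF family thus stood beside the receptor PDGFRB in both libraries.

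Of the EGF family, NRG1 was at 18.4 and 18.9 FPKM and HBEGF, a membrane-bound ligand of EGFR and ERBB4 that is released by cutting, at 14.1 and 13.8. NRG1, neuregulin, binds ERBB3 and ERBB4. A record of 1727 bases and 7 exons held 82.3% and 74.5% of its FPKM, out of 17 records. The other 4 were under the floor. TGFA was at 0.888 and 0.630 FPKM and AREG at 0.270 and 0.625, the latter from 2 and 5 fragments. EGF was listed at 0 and 0.0129 FPKM and EREG at 0 in both libraries. TGFA was listed under 1 record in the untreated library and under another in the treated library. The records differ by 3 bases, a distance at which reads that do not span the junction cannot be assigned.

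BDNF, the neurotrophin that binds NTRK2, was at 8.12 and 9.92 FPKM from 214 and 280 fragments. The ratio was 1.22 (1.02 to 1.47). The most abundant of its 17 records was at 5.64 FPKM (4.59 to 6.69) and 6.80 (5.67 to 7.94), with bounds that overlapped, and held 69.4% and 68.6%. The next, with another first exon, was at 2.04 and 1.47 FPKM. BDNF-AS on the opposite strand, at 0.135 and 0.125 FPKM, shares 280 exon bases with it. The receptor NTRK2 was at 0.00561 and 0 FPKM, so RNA of the ligand was present and that of this receptor was not detectable at this depth.

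KITLG, stem cell factor, was at 1.39 and 1.48 FPKM from 50 and 57 fragments. The record with the exon of 84 bases, which encodes the cleavable form, held 98.9% and 96.4%. Both KITLG and its receptor KIT were over the floor, and neither differed beyond counting error, with a ratio of 1.06 (0.715 to 1.59) for the ligand and 1.07 (0.797 to 1.43) for the receptor.

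All 6 IGF-binding proteins were over the floor. IGFBP5, IGFBP3, IGFBP2, IGFBP7 and IGFBP4 were nominally higher and IGFBP6 nominally lower in the treated library, with a median log2 ratio of 0.24. IGFBP5, a matrix-bound carrier made by bone, muscle and fibroblasts, was at 7.97 FPKM in untreated and 11.4 in treated cells, from 322 and 497 fragments. The ratio was 1.43 (1.24 to 1.65), and the log2 ratio of 0.47 was below the 1.5-fold rule. The gene (chr2:216672105-216695549, minus strand) has 1 record. Among 4262 genes with 300 to 1000 fragments, the central 95% of ratios ran from 0.814 to 1.26, and IGFBP5 was the only member of that range of fragments above it. Of 13 members with 300 to 1000 fragments, none lay below it.

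IGFBP3, the main IGF carrier of blood, was at 1.39 and 2.36 FPKM from 23 and 42 fragments. Its FPKM ratio of 1.70 (0.999 to 2.96) was the highest of the members over the floor, and its interval included 1. Adding 1 FPKM to both values brings it under the 1.5-fold rule, and with 0.1 or 0.5 FPKM added it passes. IGFBP2 was at 7.16 and 9.10 FPKM with 58 and 82 fragments, and the ratio was 1.27 (0.898 to 1.81). It lies 7.67 kb from IGFBP5 on chromosome 2, on the opposite strand, and both genes were nominally higher. IGFBP3 lies 18.6 kb from IGFBP1 on chromosome 7, which was at 0.301 and 0 FPKM.

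IGFBP7, a relative with weak IGF binding that also binds activin and is found in vessel walls, was the highest of this group at 73.1 and 82.4 FPKM from 469 and 569 fragments. The ratio was 1.13 (0.996 to 1.28). IGFBP4, a carrier that the protease PAPPA cuts, was at 45.1 and 47.9 FPKM with a ratio near 1, of 1.06 (0.952 to 1.18). IGFBP6, which prefers IGF2, was at 28.7 and 25.3 FPKM, and its ratio was 0.880 (0.696 to 1.11). The binding proteins summed to 163 FPKM in untreated and 178 in treated cells, and IGFBP7 made up 44.7% and 46.2% of it. Beside this, of the 10 markers of fibroblasts and mesenchymal cells over the floor, 7 were nominally higher and 5 had an interval above 1. Of all genes over the floor, 6.40% had an interval above 1, a share over genes of all fragment numbers. Intervals are narrower for genes with many fragments. All 16 markers summed to 5905 and 6421 FPKM, and COL3A1, DCN, LUM, FAP and POSTN were listed at 0 in both libraries. The 4 markers of microglia and macrophages over the floor were all nominally lower, with 0 intervals above or below 1. Of the 3 markers of epithelium over the floor, 2 were nominally higher and 1 had an interval above 1. The 1 marker of astrocytes and glia over the floor also had an interval above 1. The part of any of these markers in the result was not tested.

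**Figure D4:**
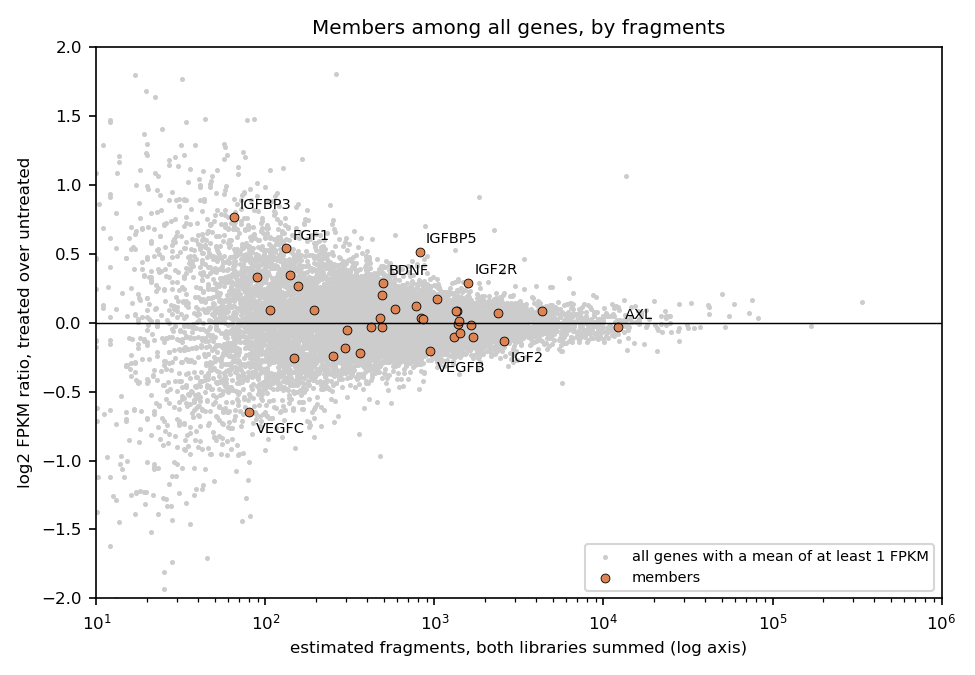
Log2 FPKM ratio of treated over untreated (vertical axis) against estimated fragments summed over both libraries (horizontal, logarithmic axis) for genes over the floor that are above 0 in both libraries (grey) and the members among them (orange). The axes leave out 98 genes with under 10 fragments or a log2 ratio beyond 2. IGFBP5 and IGF2R sit near the upper edge of genes with like numbers of fragments.

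Promoters of 49 of the 58 members were in the RefSeq promoter table of GRCh38.p14, 29 of members over the floor and 20 of members under it. Each window holds 250 bases before and 50 after the start that the table gives. Of these starts, 32 of 49 lay within 50 bases of the start of a member's most abundant record, and others lay farther off, such as FGF1 by 22884 and ERBB2 by 11884 bases, so their windows need not be the promoters of the measured transcripts. The median GC content was 74.7% over the floor and 66.8% under it, against 65.7% and 55.3% for all genes of the table over and under the floor. The ratio of observed to expected CpG was at least 0.6 in 24 of the 29 and in 13 of the 20, 82.8% and 65.0%, against 86.3% and 34.9% of all genes. The motif GGGCGG on either strand was in 26 of the 29 windows, 89.7%, and in 72.6% of all genes over the floor. CCAAT on either strand was in 2 of the 29, 6.90%, and in 7 of the 20, 35.0%, against 37.2% of all genes over the floor and 35.7% of the whole table of 27305 promoters. A match is a description of these letters and not a site.

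The promoters of IGF2R and IGFBP5 are shown, as the 250 bases before the start, because these were the 2 members above the central range of ratios for their number of fragments. That range holds the central 95% of all such genes, so some genes lie above it by its definition. The promoter of IGF2R (chr6:159968832-159969081, plus strand) holds the E-box letters CACGTG 3 times, in capitals, at 132, 74 and 28 bases before the start. CACGTG was in 7.43% of all promoters and in 10.3% of those of genes over the floor. Of the 29 windows of members over the floor, 2 held it. A count of 3 or more was in 28 of 27305 promoters, 0.103%. That limit is the number found in IGF2R itself, for a motif picked from those counted, so this share is not a test. That of IGFBP5 (chr2:216695550-216695799, minus strand) holds TATTTAA, in capitals, 31 bases before the start. TATTTAA on either strand was in 4.68% of all promoters, and was picked after the sequence had been seen.
IGF2R: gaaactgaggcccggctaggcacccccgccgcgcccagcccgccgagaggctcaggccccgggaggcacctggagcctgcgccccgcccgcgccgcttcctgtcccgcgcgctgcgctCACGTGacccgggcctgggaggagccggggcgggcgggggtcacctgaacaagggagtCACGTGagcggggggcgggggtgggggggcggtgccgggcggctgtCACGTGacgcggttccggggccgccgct
IGFBP5: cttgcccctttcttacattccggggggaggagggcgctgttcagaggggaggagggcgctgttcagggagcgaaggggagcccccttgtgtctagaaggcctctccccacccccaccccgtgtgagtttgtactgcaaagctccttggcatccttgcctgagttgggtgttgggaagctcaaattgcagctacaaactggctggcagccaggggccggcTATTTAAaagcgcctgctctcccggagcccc

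The genes through which these receptors signal are given by list. Of 155 genes in 6 pathway lists, 121 were over the floor, 60 nominally higher and 61 nominally lower. None was at least 1.5-fold different on the scale of log2(FPKM + 1), 11 had an interval above 1 and 9 below 1, and the median log2 ratio was -0.00. Of all genes over the floor, 6.40% had an interval above 1 and 6.04% below 1. At least 1.5-fold higher and lower were 1.20% and 1.03% of them. These shares belong beside the counts of each list below. Of the receptor adaptors and scaffolds, 26 of 33 were over the floor, 11 nominally higher and 15 nominally lower, with 2 intervals above 1 and 4 below 1. SHC2, an SHC adaptor, was at 1.53 and 1.01 FPKM, an FPKM ratio past 1.5-fold of 0.658 (0.330 to 1.29). NCK1, which links receptors to actin, was at 7.29 and 5.70 FPKM. FRS2, the adaptor of FGF receptors, was at 5.44 and 4.47 FPKM, and SH2B1, an adaptor of insulin and JAK signalling, at 13.8 and 16.7.

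Of the RAS, RAF, MEK and ERK list, 19 of 23 were over the floor, 10 nominally higher and 9 nominally lower, with 2 intervals above 1 and none below. The kinases RPS6KA2, at 4.43 and 5.99 FPKM, and RPS6KA1, at 20.3 and 23.5, act downstream of ERK. BRAF, a kinase that activates MEK, was at 4.14 and 3.27 FPKM. Of the PI3K, AKT and mTOR list, 27 of 28 were over the floor, 13 nominally higher and 14 nominally lower, with 2 intervals on either side of 1. TSC1, which restrains mTOR, was at 3.40 and 4.46 FPKM, and the PI3K catalytic subunits PIK3CA and PIK3CD were at 7.28 and 8.84 and at 13.6 and 15.7. FOXO4, a transcription factor that AKT inhibits, was at 3.49 and 4.16 FPKM.

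Of the genes of receptor turnover and inhibition, 24 of 26 were over the floor, 15 nominally higher and 9 nominally lower, with 1 interval above 1 and 2 below 1. PTPN2, a phosphatase of receptors, was at 6.40 and 8.27 FPKM, and STAM, which sorts receptors for degradation, at 11.4 and 9.76. LRIG2 was at 4.11 and 3.17 FPKM and ERRFI1, an inhibitor of EGFR, at 10.6 and 8.72. Of the co-receptors and heparan sulfate carriers, 13 of 23 were over the floor, with 1 interval on either side of 1. NRP2, a co-receptor of VEGFC, was at 9.70 and 8.03 FPKM, HSPG2, perlecan, at 19.4 and 21.7, SDC1 at 46.3 and 43.7, and FGFRL1, an FGF receptor without a kinase, at 34.0 and 36.0.

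Of the proteases that release or activate ligands and their inhibitors, 12 of 22 were over the floor, 6 nominally higher and 6 nominally lower, with 3 intervals above 1 and none below. SPINT2, an inhibitor of HGF activation, was at 1.36 and 0.661 FPKM from 15 and 7 fragments, an FPKM ratio past 1.5-fold of 0.485 (0.167 to 1.26). ADAM17, which cuts HBEGF and TGFA from the membrane, had a log2 ratio of -0.21 from 15.2 FPKM, and RHBDF2, its partner in transport, was at 4.79 and 6.20 FPKM. PLAU, urokinase, was at 14.0 and 16.0 FPKM.

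Of 29 receptor tyrosine kinases outside the 58 genes, 7 were over the floor, 2 nominally higher and 5 nominally lower, with a median log2 ratio of -0.06. EPHA2, an ephrin receptor, was the highest of those named at 59.2 and 50.4 FPKM, with a ratio of 0.852 (0.791 to 0.917) that lay below 1 and below the central range of genes with 1000 to 5000 fragments. STYK1 was at 1.88 and 1.36 FPKM and LMTK2 at 3.64 and 3.90. Of 51 further growth factor names, 49 are in the files and 14 were over the floor, 5 nominally higher and 9 nominally lower. NRTN, a ligand of RET with its co-receptor, was at 1.77 and 3.26 FPKM from 11 and 22 fragments, and was the 1 gene of these lists past 1.5-fold on the scale of log2(FPKM + 1). The interval of its FPKM ratio, 0.859 to 4.22, included 1. CSF1, the ligand of CSF1R, was at 3.64 and 4.95 FPKM, and its ratio was 1.36 (1.04 to 1.77), the 1 interval above 1 in this list. The 2 intervals below 1, named for that reason, were those of CTGF, a matricellular protein, with a ratio of 0.943 (0.894 to 0.994), and HDGF, with 0.937 (0.901 to 0.974). FGF22, at 2.05 FPKM in untreated cells from 6 fragments, had an FPKM ratio of 0.609 (0.126 to 2.57), and PGF, a ligand of FLT1, was at 12.7 and 10.5 FPKM.

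**Figure D5:**
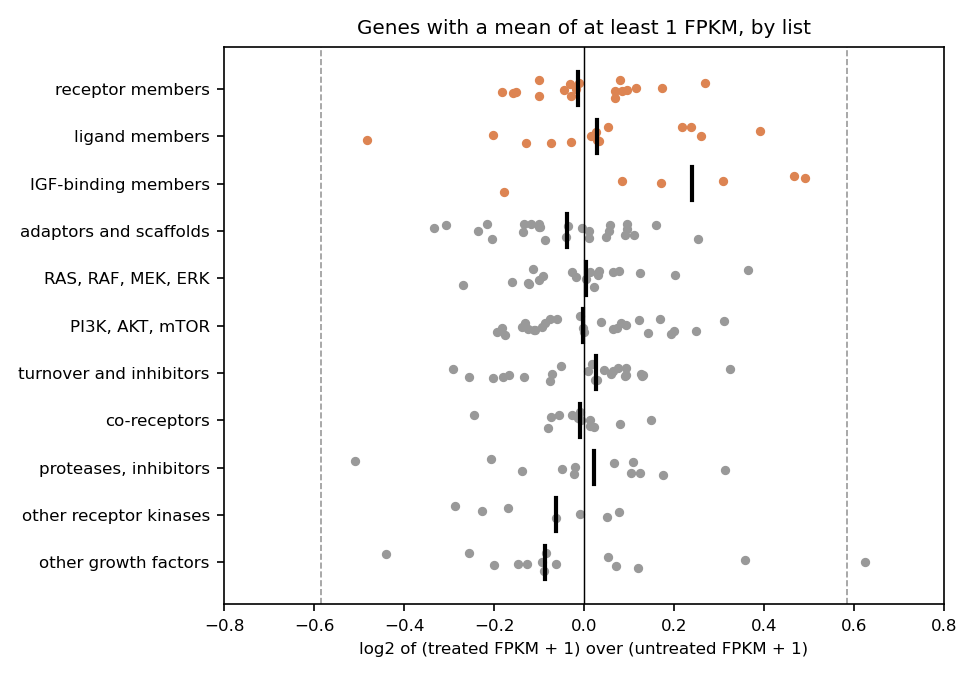
Log2 of (treated FPKM + 1) over (untreated FPKM + 1) for each gene over the floor, for the members by role (orange) and for the pathway and further lists (grey), with vertical bars at each list's median and dashed lines at 1.5-fold. Points are spread vertically for display. The median of the IGF-binding members is 0.24 and those of the pathway lists lie between -0.04 and 0.03.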

How the data were processed

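RNA was sequenced in 1 untreated and 1 treated library, and samples were grouped by their treatment labels. The submitters' processing notes name TopHat, Cuffdiff and the build hg38, without versions. Each line of the authors' files names Cufflinks and a RefSeq transcript. The FPKM values and bounds that the authors deposited are fragments scaled to transcript length and depth and are other than counts, so no count model was fitted. FPKM was summed over a gene's records and compared as log2((treated + 1)/(untreated + 1)), for genes averaging at least 1 FPKM, the floor. These log2 values understate ratios of low genes. The authors' score per transcript was not used.

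Fragments were recovered from the deposited bounds for genes with 1 record, and estimated from FPKM, length and depth for others. Of recovered values, 21.1% of 5931 and 21.3% of 5992 were whole within 0.01, so they are estimates. Ratio intervals are exact conditional binomial intervals at 95%, scaled to the FPKM ratio. They were tried on simulated fragments with counting noise only, the error that they assume, so the trial cannot check any other error. The intervals leave out duplicates and the division of fragments between records. They compare fragments of the 2 libraries, and with no replicates no test between conditions was made. Python 3.11.15, numpy 2.4.6, pandas 2.3.3 and scipy 1.17.1 were used.

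The members, the gene lists and the tests were chosen with earlier results of these data known. Named are all members, from each further list up to 4 genes over the floor, those whose log2 ratio is farthest from 0, and markers. Some genes that this rule takes are not reported here. GAS6, PROS1, NUDT6, RNA18S5, CSF1R, CHRM4, IGFBP1 and overlapping genes were named as partners, neighbours or library values. Alternatives changed the pseudocount, the floor, the fold, the scaling, the unit, the interval and the use of a gene's most abundant record.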

Additional observations from a re-analysis of the deposited data

How the results depend on the processing

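The 38 members over the floor became 58 with no filter. The count of members at least 1.5-fold higher, 0 as reported, was 1 with a pseudocount of 0.1 or 0.5 FPKM and with depth-scaled fragments in place of FPKM, IGFBP3 each time, and 3 under a limit lower than 1.5-fold (FGF1, IGFBP3 and IGFBP5). The count at least 1.5-fold lower, 0 as reported, was 1 with a pseudocount of 0.1 and under the lower limit, VEGFC both times. Intervals above 1, 4 as reported, were 7 with upper quartile scaling, which added PTK7, IGFBP3 and IGFBP7. With the most abundant record they were 5, without BDNF and with PTK7 and FGF5. Intervals below 1, 2 as reported, were 1 with the most abundant record, DDR1 in place of VEGFB and IGF2, and 0 by the authors' deposited bounds. Those bounds are of the most abundant record of a member. They lay higher in treated cells for 3 members, IGF2R, FGF5 and IGFBP5, and not for BDNF and FGF1. The share of all genes with such a record is not given here. FGF5 summed over its records did not differ beyond counting error, with a ratio of 1.01 (0.909 to 1.12). The median log2 ratio lay between -0.017 and 0.043. Of 228 member values under 6 settings, 225 stayed within the reach of their counting interval and 3 moved further, all with the most abundant record: FGFR4 to -0.24, DDR1 to -0.46 and FGF5 to 0.29. No member whose interval excluded 1 changed sign. Beyond these constructions the cause was not tested. No paired analysis was possible because each condition has 1 library. With under 100 fragments in both libraries, the intervals of members such as IGFBP3, VEGFC and KITLG each span more than 1.5-fold, and smaller differences of such genes are not detectable at this depth.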
